A study of Mus musculus with 6 samples.

Results

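The Galnt9 locus was examined here in preadipocytes of wild type mice (WT) and of mice lacking both HMGN1 and HMGN2 (DKO). The locus was taken as the Galnt9 gene body on the plus strand of chromosome 5 (chr5:110544355-110621380, mm10) with 100 kb on both sides. It was chosen by measured values, because one window near an internal start of the gene differed between the genotypes in these same 6 libraries. Values at that window are therefore given as a description with no test. The members were all peak summits listed in this stretch, 425 of the 1797083 in the 6 lists.

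The libraries were ATAC-seq libraries, made with the omni-ATAC protocol, in which the transposase Tn5 cuts and tags accessible DNA. The cells were undifferentiated preadipocytes (day 0) from inguinal white adipose tissue of C57BL/6 mice, grown on collagen-coated plates, with 3 WT and 3 DKO libraries. The DKO animals were Hmgn1-/- and Hmgn2-/- knockouts, so the cells lacked both proteins when they were isolated. The labels do not say whether the 3 libraries of a genotype came from separate animals or cultures, so p-values measure the spread between these libraries only.

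GALNT enzymes sit in the Golgi and start mucin-type O-glycosylation, adding N-acetylgalactosamine to serine or threonine of proteins that pass through. GALNT9 is one member of this family and is best known from the nervous system. HMGN1 and HMGN2 bind nucleosomes, where they compete with linker histone and affect how accessible chromatin is. Neighbours of Galnt9 are Fbrsl1, the long non-coding RNA A630023P12Rik, Noc4l and Ddx51, which act in ribosome assembly, and Ep400, a chromatin remodelling ATPase.

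Each list held the roughly 300000 peaks of smallest p in its library, from 299433 to 299620 summits. A missing summit is one that fell under the limit of its list, which lay between 3.54 and 5.63 in −log10 p, and it does not mean closed chromatin. Summits at a Pdgfra, Pdgfrb, Cd34, Thy1, Dcn or Dpp4 start were listed in all 6 libraries, 6 of 8 preadipocyte or stromal markers, whereas none of the 4 mature adipocyte markers had one. Among leukocyte markers, Ptprc and Cd3e had no summit in any library and Itgam had one in the 3 DKO libraries alone, with fold enrichments of 4.19, 5.95 and 3.28. Of 3 endothelial markers, Cdh5 was listed in the 3 DKO libraries alone at 3.91, 7.09 and 4.26. The other 2 were listed in all 6 libraries and were higher in WT as deposited, before normalization. Pecam1 had 16.9, 12.2 and 17.2 in WT against 11.1, 11.8 and 10.3 in DKO. Tek had 18.2, 15.4 and 16.7 against 13.5, 15.3 and 14.3, with a very small gap. Median fold enrichments of the whole lists were 5.07, 4.55 and 5.87 in WT and 4.75, 4.82 and 4.35 in DKO. Of 3 epithelial markers, Cdh1 was listed in all 6 libraries (3.40 to 5.84), Krt8 in 4 and Epcam in none, and of 3 neural markers Snap25 in all 6 (5.57 to 9.10) and Rbfox3 and Syp in none. The part of such cells in the differences below was not tested. At the Hmgn2 start both windows were listed in the 3 WT libraries and in no DKO library. A window 366 bp from the Hmgn1 start was listed in all 6, but it may lie outside the deleted part and then checks nothing.

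The sequences below are examples from the locus, each 201 bases of the GRCm38 (mm10) plus strand centred on a site. Capitals mark AP-1 letters (TGACTCA, which reads TGAGTCA on the other strand) and TEAD letters (GGAATG or CATTCC). Sites with larger fitted differences than some of these are not printed. Among them are chr5:110629309-110629809 (0.81 on the log2 scale) and chr5:110660284-110660784 (−0.80). AP-1 letters were in 22.2% of the tested sites, against 27.9% of all windows, so these examples do not stand for the locus. The first sequence is the window that led to the choice of the locus (chr5:110604417-110604617). The next is a site listed in WT alone (chr5:110514041-110514241), and the third is another such site, with neither set of letters in the bases shown (chr5:110554748-110554948). The fourth is the strongest site of the gene body (chr5:110565020-110565220). The last is a site that was higher in DKO (chr5:110477011-110477211).
internal_start_site: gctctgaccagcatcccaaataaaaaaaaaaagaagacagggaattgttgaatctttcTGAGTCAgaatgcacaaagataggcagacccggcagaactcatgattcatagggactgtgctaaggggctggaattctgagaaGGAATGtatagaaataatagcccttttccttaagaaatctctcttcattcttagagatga
upstream_WT_site: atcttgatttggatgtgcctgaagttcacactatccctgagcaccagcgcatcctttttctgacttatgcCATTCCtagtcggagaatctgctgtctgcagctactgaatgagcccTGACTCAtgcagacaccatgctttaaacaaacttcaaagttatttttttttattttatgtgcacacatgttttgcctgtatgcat
intronic_WT_site: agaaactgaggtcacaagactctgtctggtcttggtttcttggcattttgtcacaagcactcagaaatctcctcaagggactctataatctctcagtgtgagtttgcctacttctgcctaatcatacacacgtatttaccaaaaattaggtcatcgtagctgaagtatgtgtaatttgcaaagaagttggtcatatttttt
strongest_intronic_site: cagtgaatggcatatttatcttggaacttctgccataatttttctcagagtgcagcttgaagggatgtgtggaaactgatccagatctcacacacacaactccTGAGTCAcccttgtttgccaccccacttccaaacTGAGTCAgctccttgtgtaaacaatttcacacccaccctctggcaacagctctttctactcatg
upstream_DKO_site: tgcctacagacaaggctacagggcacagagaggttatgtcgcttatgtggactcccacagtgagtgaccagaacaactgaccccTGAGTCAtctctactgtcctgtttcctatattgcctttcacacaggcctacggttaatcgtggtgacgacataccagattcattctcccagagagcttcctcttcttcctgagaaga

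Galnt9 has 2 annotated starts, and their promoters differ in base composition. The full-length transcript starts at 110544355 and the short one at 110603522, inside the gene. The RefSeq promoter sequences (GRCm38, plus strand, 250 bases before to 50 after the start) are shown because sites at both starts were listed. In the first (chr5:110544105-110544404), capitals mark an E-box (CACGTG) and SP/KLF letters (GGGCGGG). The second (chr5:110603255-110603554) held none of the letters searched. It follows the RefSeq start, which lies slightly before the annotated start at 110603522 that is used for distances here.
full_length_promoter: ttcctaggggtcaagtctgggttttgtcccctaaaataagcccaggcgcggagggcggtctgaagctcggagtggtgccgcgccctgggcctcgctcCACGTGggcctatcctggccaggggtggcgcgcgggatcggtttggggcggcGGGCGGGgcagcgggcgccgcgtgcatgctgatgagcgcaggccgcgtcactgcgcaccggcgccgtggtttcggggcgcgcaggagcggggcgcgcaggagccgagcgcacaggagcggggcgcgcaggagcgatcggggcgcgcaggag
internal_promoter: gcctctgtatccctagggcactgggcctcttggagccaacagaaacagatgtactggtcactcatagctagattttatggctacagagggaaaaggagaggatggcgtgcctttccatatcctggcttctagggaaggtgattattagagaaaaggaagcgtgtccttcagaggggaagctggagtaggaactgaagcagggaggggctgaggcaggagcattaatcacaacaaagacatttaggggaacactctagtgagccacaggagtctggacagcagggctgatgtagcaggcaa
The full-length promoter held 41 CG pairs with 73.7% G and C, and the internal promoter held 2 with 51.0%, against a median of 7 CG pairs in 32851 RefSeq promoters. SP/KLF letters were in 25.6% of those promoters and the E-box in 7.15%.

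Fewer summits of the locus were listed in DKO than in WT. The WT libraries held 73, 78 and 77 and the DKO libraries 62, 68 and 67, so the groups did not overlap over the whole stretch. They were also apart among the 200000 peaks of smallest p, with 51, 50 and 46 in WT and 38, 40 and 43 in DKO. They overlapped among the 100000 peaks of smallest p (19, 27 and 24 in WT and 16, 19 and 20 in DKO) and with 50 kb on both sides (53, 63 and 58 against 47, 55 and 54). WT libraries averaged 76.0 ± 2.65 summits and DKO libraries 65.7 ± 3.21 (± SD over 3 libraries). An exact permutation test of 3 against 3 cannot give a two-sided p under 0.1, so none is given here or for other single counts. The gap lay mostly in the 100 kb before the gene, with 32, 26 and 28 summits in WT and 21, 22 and 23 in DKO. In the gene body WT held 24, 30 and 26 and DKO 21, 24 and 25, and in the 100 kb after the gene WT held 17, 22 and 23 and DKO 20, 22 and 19, and both of these overlapped. Called intervals of the locus covered 13946, 14106 and 15444 bp in WT and 11083, 11701 and 11955 bp in DKO. The summit counts and the covered bp include the window that led to the choice of the locus. How often other stretches of this length separate in the same way was not counted, so these gaps have no background.

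**Figure D1:**
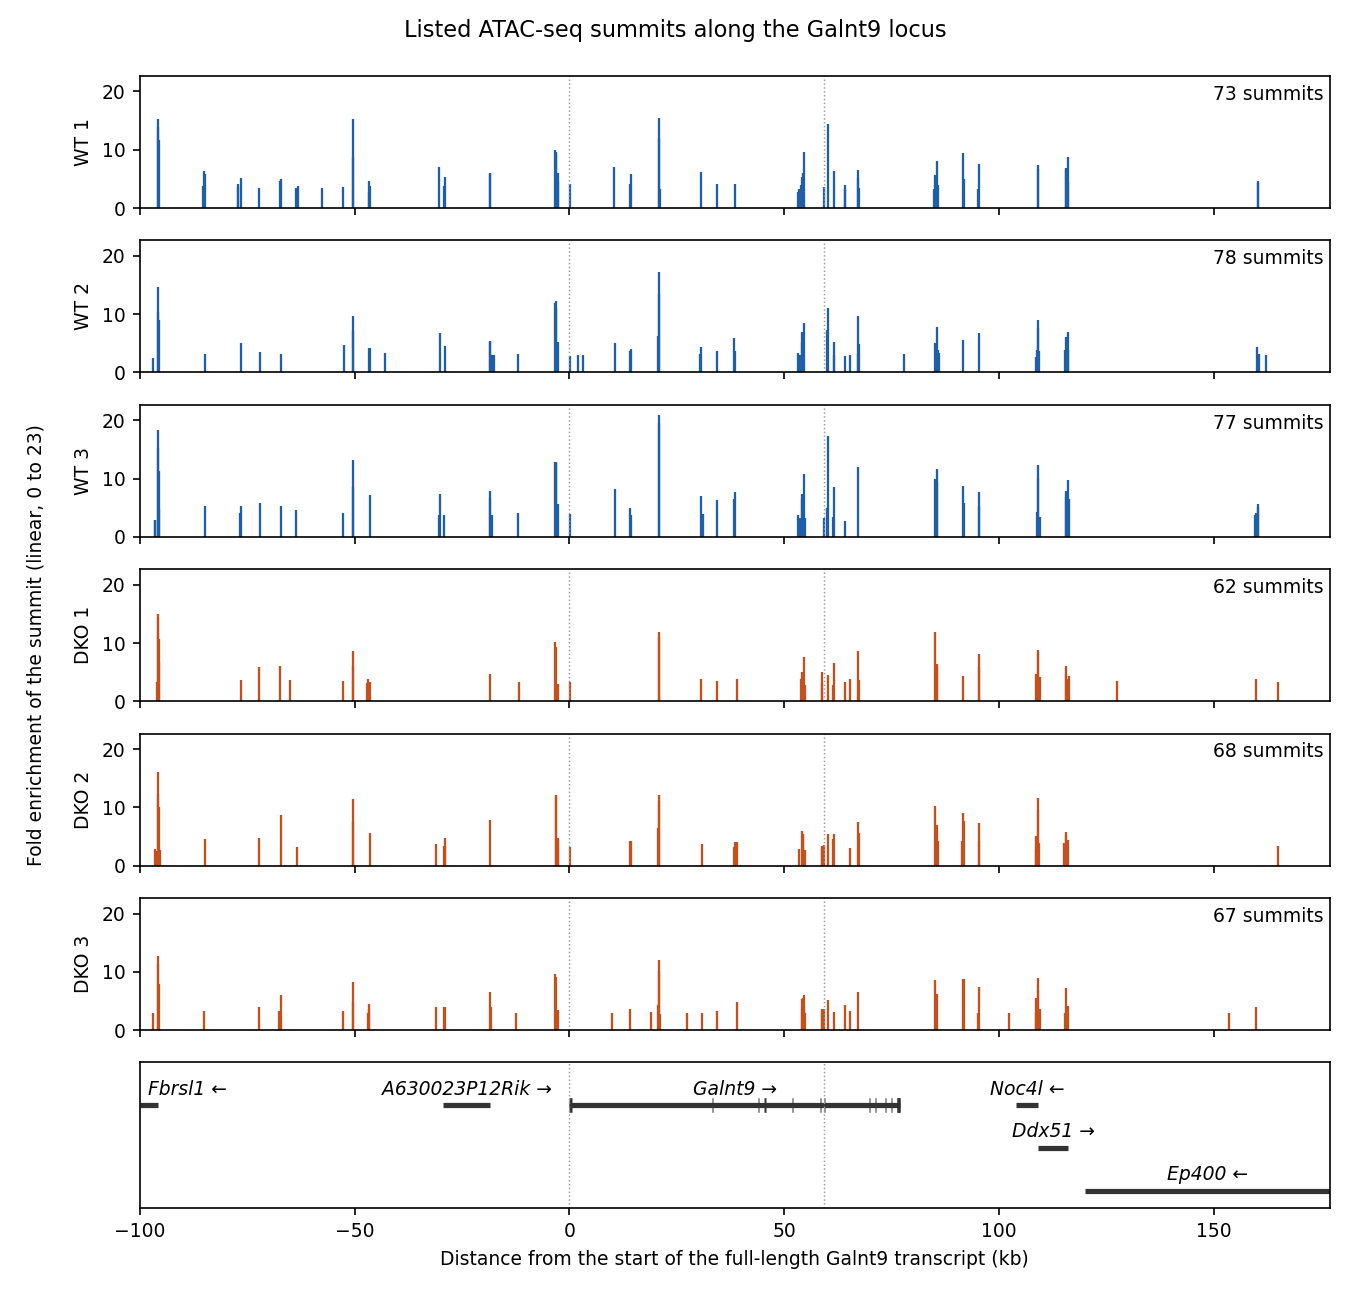
Every listed summit of the Galnt9 locus in the 3 WT (blue) and 3 DKO (orange) libraries, with its MACS2 fold enrichment on a linear axis against distance in kb from the full-length start; dotted lines mark both Galnt9 starts and the lowest panel shows gene bodies and Galnt9 exons. The same tall summits recur in all 6 libraries, while the one just right of the second dotted line reaches 11.1 to 17.3 in WT and 4.60 to 5.37 in DKO.

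Summits within 250 bp of a common centre were joined into 61 sites of 501 bp, which held 379 of the 425 summits. The other 46 lay at most 497 bp from the nearest centre. By annotation 30 sites were intronic, 24 intergenic, 1 in a coding exon and 6 in non-coding exon parts. There were 21 sites in all 6 libraries and 16 in 1 library only, 8 of these in WT and 8 in DKO, with fold enrichments of 2.92 to 4.08. The other 24 were listed in 2 to 5 libraries. The 45 sites with a summit of q under 0.01 in at least 2 libraries were tested in the limma fit over all 179254 such windows of the genome.

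In 11 of these 45 sites (24.4%) every DKO library was below every WT library on the normalized scale, against 7.67% of all windows, and in 4 (8.89%) every DKO library was above, against 8.76%. Without the window that led to the choice the first count was 10 of 44 (22.7%). The 45 sites share the same 6 libraries and are not replicates. Without the choosing window, 6 of 16 gene body sites were below and 2 above, before the gene 2 and 1 of 17, and after it 2 and 1 of 11. Of the 44 sites, 16 were listed in at most 1 library of a genotype, whose other values were imputed. Of these, 13 entered through the other genotype and 3 through 1 library of each, and 4 of the 16 were below and 2 above. Of the 28 listed in at least 2 libraries of both, 6 were below and 2 above. Over those 28 the median difference on the log2 scale was −0.41 for 10 gene body sites, −0.02 for 10 sites before the gene and 0.15 for 8 after it. Among the 20 sites other than the choosing window that were listed in all 6 libraries, 5 were below and 2 above, against 7.95% and 9.86% of windows listed in all 6. Separation also held in 14 of the 15 sites for fold enrichment as deposited. The choosing window was left without a test, and of the other 44 sites limma called 0 lower and 0 higher at an adjusted p of 0.05. At an unadjusted p under 0.05 there were 10 lower and 4 higher, against 6.1% and 5.69% of all windows, and 5 and 2 of these were among the 28 sites just named. Over all windows limma called 61 lower (0.034%) and 41 higher (0.0229%) in DKO.

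**Figure D2:**
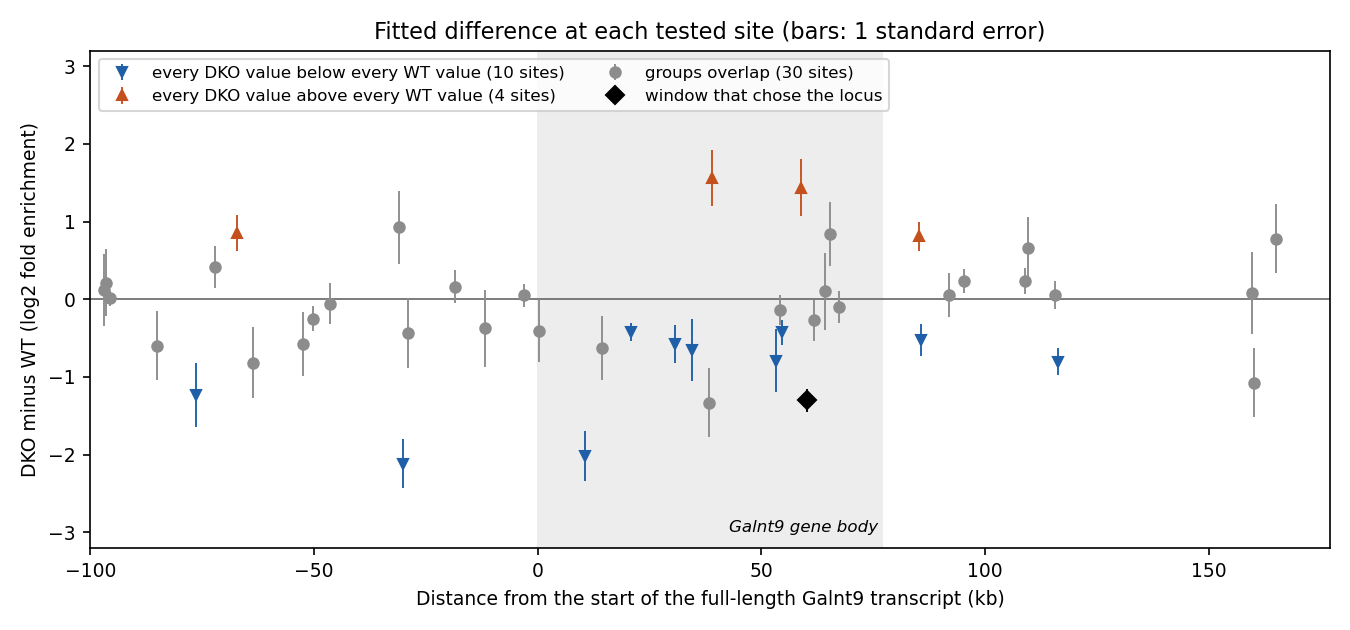
Fitted DKO minus WT difference in log2 fold enrichment at the 45 tested sites (points, bars of 1 standard error, with an unlisted library at the lowest value of its list) against distance in kb from the full-length Galnt9 start, with the gene body shaded. Downward triangles, the 10 sites with every DKO value below WT, lie inside the gene body at 6 places, and the 4 upward triangles are spread over the locus.

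The window that led to the choice of the locus (chr5:110604267-110604767) lies in an intron, 995 bp past the internal start and 60.16 kb from the full-length start. Fold enrichment there was 14.3, 11.1 and 17.3 in WT and 4.60, 5.37 and 5.26 in DKO, with no overlap. The fitted difference was −1.30 ± 0.15 (SE) on the log2 scale, as a description. Ranked by p, the site stood in the top 4.92%, 8.27% and 3.67% of the WT lists and at 45.8%, 37.9% and 36.9% of the DKO lists. The pileup, the number of extended fragment ends over the summit, was 106, 69 and 151 in WT and 27, 32 and 22 in DKO. The local background to which MACS2 compared it was also higher in WT, at 6.46, 5.29 and 7.78 against 5.09, 5.15 and 3.37, so that the pileup differed by more than the fold enrichment. Its summit stayed in place, between 110604507 and 110604519 in all 6 libraries. The called interval spanned 392, 347 and 334 bp in WT and 108, 197 and 200 bp in DKO. In the sequence printed above, the AP-1 letters lie 39 bases before the centre and the TEAD letters 44 bases after it.

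The internal start itself was listed weakly in both genotypes. Summits 3 to 31 bp from it had fold enrichments of 3.68 in WT replicate 1, 3.28 in WT replicate 3, 3.62 in DKO replicate 2 and 3.60 in DKO replicate 3, and the remaining libraries had none there. Just before it, all 3 DKO libraries had a further interval with a pair of summits. The site there (chr5:110603001-110603501), with its centre 271 bp from the internal start, reached 4.95, 3.38 and 3.66 in DKO and was not listed in WT. The site passed the filter through the DKO libraries alone, so no difference or p is given for it. The nearest WT summits were 286 and 302 bp away in replicates 1 and 3, at the start itself, and 1158 bp away in replicate 2.

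**Figure D3:**
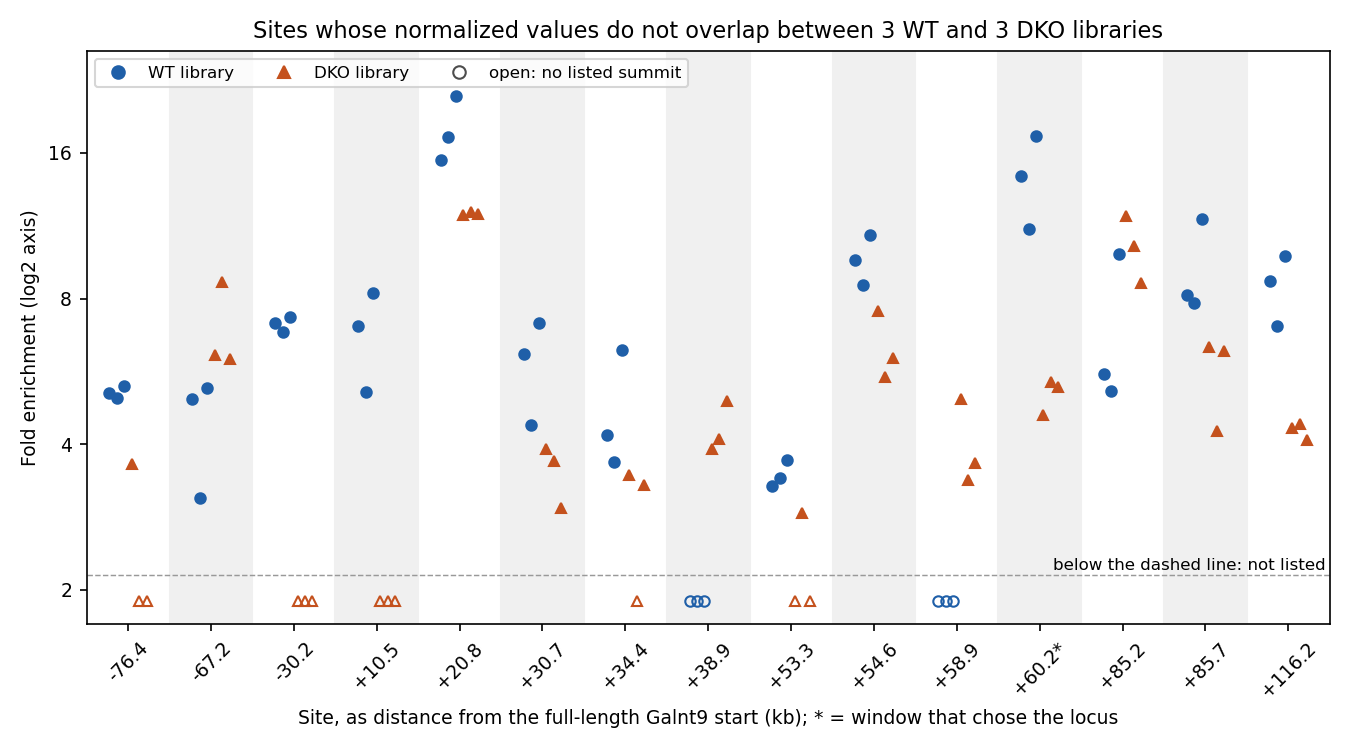
Fold enrichment as deposited (log2 axis) in each of the 3 WT (blue circles) and 3 DKO (orange triangles) libraries at the 15 sites whose normalized values did not overlap, ordered along the locus by distance in kb from the full-length start, with open symbols where a library listed no summit. WT stands above DKO at 11 sites, and at the site at +85.2 kb one WT library lies within the DKO range before normalization.

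The full-length start was weakly accessible in these cells. The site in the first exon (chr5:110544274-110544774), rich in SP/KLF letters, had fold enrichments of 4.17, 2.90 and 3.92 in WT and 3.36 and 3.25 in DKO replicates 1 and 2, and was not listed in DKO replicate 3. The groups overlapped, and the fitted difference was −0.40 ± 0.41 (SE; limma adjusted p = 0.723), with the missing value set to the lowest of its list. That value rests on the missing library, since without DKO replicate 3 it was −0.018. A stronger site 3.06 kb before the start (chr5:110541040-110541540) reached 9.93, 12.2 and 12.9 in WT and 10.2, 12.2 and 9.60 in DKO. Its values overlapped, with a difference of 0.05 ± 0.15 (limma adjusted p = 0.936). Pileups at this site did not overlap, with 63, 80 and 91 in WT and 42, 57 and 32 in DKO. By pileup the difference was −0.61 (limma adjusted p = 0.266), so its direction depends on the measure.

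The strongest site of the gene body lay in the first intron, 20.77 kb from the full-length start (chr5:110564870-110565370). Its fold enrichment was 15.5, 17.2 and 20.99 in WT and 11.9, 12.1 and 11.99 in DKO, so every DKO library was below every WT library. The fitted difference was −0.42 ± 0.12 (SE; limma adjusted p = 0.181). This sequence carries the AP-1 letters at 2 places, 6 and 40 bases past its centre.

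Another first-intron site, at 10.49 kb (chr5:110554598-110555098), was listed in WT alone. Fold enrichment was 7.01, 5.12 and 8.22 in WT, from pileups of 23, 17 and 27. No DKO library listed a summit in it, and the nearest were 692 bp away or further. The site passed the filter through the WT libraries alone and its DKO values were all imputed, so no difference or p is given for it.

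Further along the introns, several weaker sites were lower in DKO, none past the threshold. At 30.71 kb fold enrichment was 6.15, 4.37 and 7.11 in WT and 3.91, 3.68 and 2.95 in DKO (−0.57 ± 0.25, limma adjusted p = 0.403). At 34.4 kb it was 4.18, 3.68 and 6.26 in WT and 3.45 and 3.30 in DKO replicates 1 and 3, with no summit in replicate 2. At 53.31 kb it was 3.28, 3.41 and 3.72 in WT and 2.89 in DKO replicate 2 alone. At the first 2 sites every listed WT value was above every listed DKO value, with a small gap at 34.4 kb that rested partly on a missing summit (limma adjusted p = 0.486). The site at 53.31 kb passed the filter through WT, so no difference or p is given for it.

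A cluster of sites preceded the internal start by about 5 kb. Its strongest member, at 54.58 kb (chr5:110598688-110599188), had 9.59, 8.54 and 10.8 in WT and 7.55, 5.50 and 6.02 in DKO, a separation of −0.42 ± 0.16 (limma adjusted p = 0.342). The neighbouring site at 54.06 kb overlapped, with 5.94, 6.88 and 7.38 in WT and 5.02, 5.95 and 5.31 in DKO. Past the internal start, the site at 67.24 kb held 6.51, 9.77 and 11.98 in WT and 8.67, 7.50 and 6.51 in DKO, also overlapping (−0.10 ± 0.21, limma adjusted p = 0.889).

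One intronic pair of sites showed summits at different positions in the genotypes. At 38.91 kb (chr5:110583019-110583519) fold enrichment was 3.91, 4.09 and 4.92 in DKO, with no summit in WT. The WT summits lay 423, 429 and 417 bp before its centre, inside the adjoining site at 38.34 kb. That adjoining site had 4.09, 5.92 and 7.63 in WT, and in DKO only replicate 2 was listed, at 4.07. Each passed the filter through one genotype, so no difference or p is given for them. The pair differed in where summits were called, and neither site alone describes it.

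Before the gene, one site was listed in WT alone, 782 bp before the start of A630023P12Rik (chr5:110513891-110514391). Fold enrichment was 7.11, 6.83 and 7.34 in WT, from pileups of 25, 23 and 24, and no DKO library listed it. The nearest DKO summits were 784 and 844 bp away in replicates 2 and 3, and further in replicate 1. This site too passed the filter through WT alone, with all DKO values imputed, and no difference or p is given. As printed above, AP-1 letters lie 19 bases past its centre and TEAD letters 27 bases before it.

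Values at a pair of other upstream sites were also separated on the normalized scale. The site 76.43 kb before the start had 5.09, 4.99 and 5.28 in WT and 3.63 in DKO replicate 1 alone, and as it passed the filter through WT no difference or p is given for it. The site 67.24 kb before the start (chr5:110476861-110477361) went the other way, with 4.96, 3.10 and 5.22 in WT and 6.13, 8.63 and 6.01 in DKO (0.85 ± 0.23, limma adjusted p = 0.178). AP-1 letters were in both of these sites, 13 bases before the centre in the higher one. The strong site 50.35 kb before the start overlapped, with 15.3, 9.72 and 13.2 in WT and 8.64, 11.4 and 8.22 in DKO (−0.25 ± 0.16, limma adjusted p = 0.501, and −0.10 without WT replicate 1).

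Values at the Fbrsl1 and Noc4l starts overlapped between the genotypes. The site 125 bp from the Fbrsl1 start had 15.2, 14.7 and 18.3 in WT and 15.0, 16.1 and 12.8 in DKO (0.01 ± 0.10, limma adjusted p = 0.997). The site 56 bp from the Noc4l start, which shares its promoter region with Ddx51 and carries the CRE letters TGACGTCA, had 7.34, 9.04 and 12.4 in WT and 8.89, 11.7 and 8.96 in DKO (0.24 ± 0.17, limma adjusted p = 0.564, and 0.069 without WT replicate 1). At both promoters the libraries of the genotypes were interleaved.

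Between Galnt9 and Noc4l, adjacent sites differed in opposite directions. At 85.2 kb (chr5:110629309-110629809) fold enrichment was 5.59, 5.14 and 9.90 in WT and 11.9, 10.3 and 8.62 in DKO, and the groups were separated only after normalization. At 85.74 kb (chr5:110629843-110630343) it was 8.13, 7.85 and 11.7 in WT and 6.37, 4.25 and 6.23 in DKO. Differences were 0.81 ± 0.18 and −0.52 ± 0.21 (limma adjusted p = 0.150 and 0.365), the first under 0.05 (0.0365, with a range over the alternatives of 0.0365 to 0.384) when only windows listed in all 6 libraries were fitted. With windows of 500 bp on both sides the first difference was 0.36 (limma adjusted p = 0.336), and without DKO replicate 2 the second was −0.30. The difference between these 2 sites was not tested.

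Sites at 91.81 and 95.31 kb overlapped. The first had 9.47, 5.54 and 8.81 in WT and 4.43, 9.07 and 8.83 in DKO (0.05 ± 0.28, limma adjusted p = 0.987), and the second 7.55, 6.83 and 7.63 in WT and 8.11, 7.27 and 7.33 in DKO (0.23 ± 0.16, limma adjusted p = 0.530, but 0.045 without scaling and 0.15 without WT replicate 3). Just past the end of Ddx51, an RNA helicase gene, the site at 116.18 kb (chr5:110660284-110660784) was lower in every DKO library. There WT had 8.68, 7.01 and 9.81 and DKO 4.32, 4.41 and 4.07, a difference of −0.80 ± 0.17 (limma adjusted p = 0.143). The DKO libraries differed little from each other at this site.

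Motif letters were counted over the whole 501 bp of each site, on both strands. The letters were AP-1 TGACTCA or TGAGTCA, CRE TGACGTCA, TEAD GGAATG, RUNX TGTGGTT, CEBP TTGCGCAA or TTGCATCA, SP/KLF GGGCGGG, E-box CACGTG, and NFI and CTCF by their names, and none of those spelled out contains another. AP-1 letters were in 10 of the 45 tested sites (22.2%), against 27.9% of all windows, and TEAD letters in 16 (35.6%), against 30.4%. RUNX letters were in 5 (11.1%, all windows 13.4%) and SP/KLF letters in 4 (8.89%, all windows 10.1%). AP-1 letters were in 4 of the 11 sites below WT, 1 of the 4 above and 5 of the 30 that overlapped, and TEAD letters in 6, 2 and 8. The AP-1 sites below WT include the choosing window. They also include the sites 30.21 and 76.43 kb before the full-length start, which passed the filter through WT. CEBP, NFI and CTCF letters were in none of the 45, and in 2.28%, 0.06% and 3.25% of all windows. A match describes these letters only, and the counts are too small to compare.

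The other GALNT genes gave the setting for Galnt9. Of 19 family members, 18 had a tested window within 1 kb of a start, and Galntl6 did not. Apart from Galnt9, 0 of 17 were called lower and 0 higher by limma, and at an unadjusted p under 0.05 there were 0 lower and 3 higher, a share to be read against the 6.1% and 5.69% of all windows. The median difference of these 17 was 0.19 on the log2 scale, with 3 negative and 14 positive values, against 0.01 over all windows. In none of the 17 was every DKO library below WT, and in 5 every DKO library was above on the normalized scale, where 7.67% and 8.76% of all windows were so separated. Among these 5, Galnt5, Galnt16 and Galnt18 overlapped in fold enrichment before normalization. With windows within 500 bp of a start, 1 family gene was higher at an unadjusted p under 0.05 and 3 were above.

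The largest values were those of the 3 genes with a low unadjusted p. Galnt7, which prefers peptides already carrying a sugar, had 5.42, 6.27 and 6.39 in WT and 9.23, 9.76 and 7.39 in DKO (0.71 ± 0.17, limma adjusted p = 0.158). Galnt5 had 5.26, 4.55 and 5.84 in WT and 8.67, 10.5 and 4.92 in DKO (0.74 ± 0.24, limma adjusted p = 0.242), which overlapped before normalization. Galnt6 had 3.50 and 3.42 in WT replicates 1 and 2, none in replicate 3, and 4.46, 5.14 and 4.26 in DKO (0.86 ± 0.38, limma adjusted p = 0.411). The tall Galnt4 window overlapped, with 20.01, 14.3 and 19.6 in WT and 16.8, 16.2 and 14.0 in DKO.

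**Figure D4:**
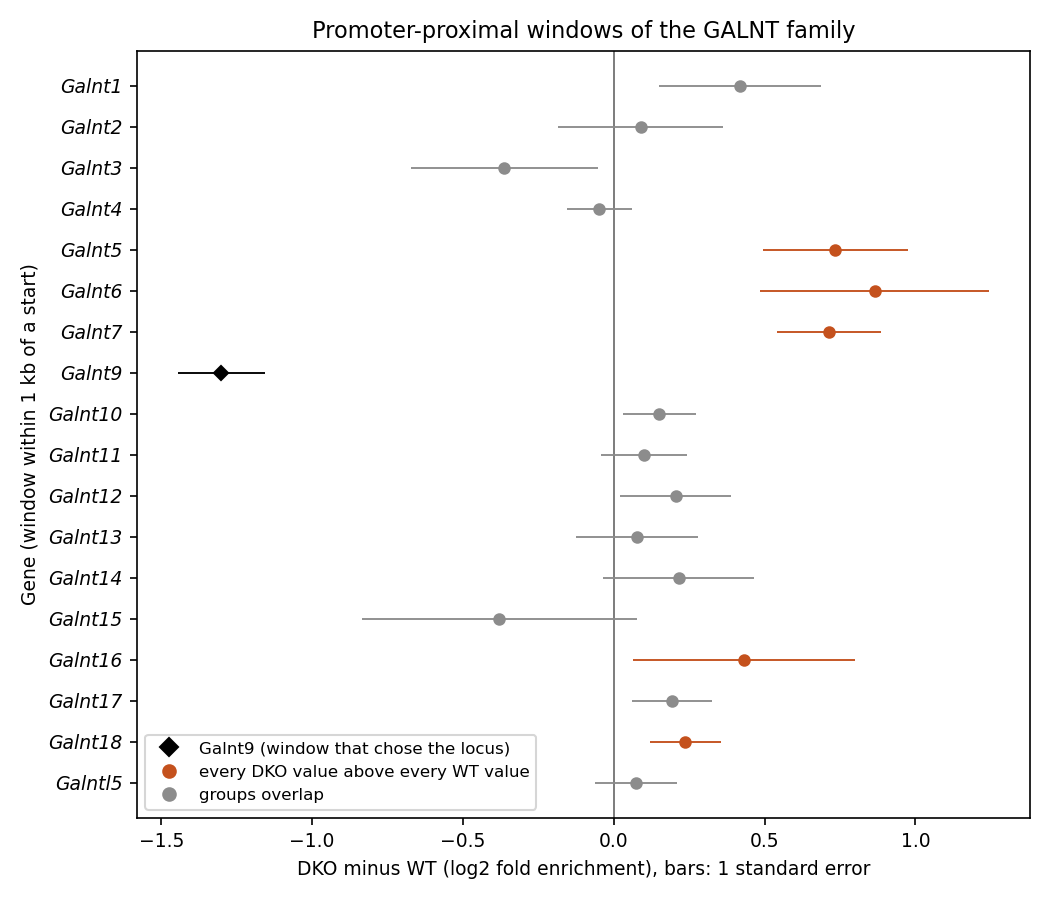
Fitted DKO minus WT difference in log2 fold enrichment (points, bars of 1 standard error) for the window near a start of 18 GALNT genes, Galnt9 as a black diamond and the 5 genes with every normalized DKO value above WT in orange. Galnt9 lies at −1.30 and the other 17 genes have a median of 0.19. The Galnt9 window is the one that led to the choice of the locus, so its place apart was set by that choice. The site at the full-length Galnt9 start, not shown, was at −0.40 ± 0.41 (SE), with DKO replicate 3 imputed.

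Enzymes that extend the first sugar were looked at in the same way. Of 15 such genes, 12 had a tested window, with 0 called lower and 0 higher by limma and, at an unadjusted p under 0.05, 0 lower and 3 higher (all windows 6.1% and 5.69%). One of these 3, St6galnac5, passed the filter through DKO, with no summit in WT replicates 2 and 3. On the normalized scale every DKO library was below WT in 1, St6galnac3, and above in 4, with St6galnac5 among the 4, although St6galnac3 and C1galt1c1 overlapped before normalization (all windows 7.67% and 8.76%). C1galt1, which makes the core 1 structure, had 9.80, 10.4 and 15.3 in WT and 11.6, 10.1 and 10.3 in DKO (0.05 ± 0.14, limma adjusted p = 0.950). C1galt1c1, its chaperone, had 12.5, 12.5 and 16.5 in WT and 16.4, 14.8 and 15.3 in DKO (0.32 ± 0.11, limma adjusted p = 0.270). The list's median was 0.19, with 4 negative and 8 positive values.

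The promoter-proximal windows whose 6 normalized values lay nearest to those of Galnt9, by Euclidean distance among 13802 protein-coding genes, belonged to Mctp2, Krt10, Tfec, Fam229b and Abcb1a, at distances of 0.71, 0.83, 0.87, 0.88 and 0.96. Mctp2 had 11.6, 9.79 and 13.3 in WT and 5.34, 6.27 and 6.43 in DKO. Abcb1a, a drug efflux pump of the ABC family, had 13.4, 12.2 and 20.5 in WT and 5.59, 9.07 and 6.88 in DKO. Their likeness follows from the measure over 6 libraries.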

How the data were processed

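The members and lists were chosen with earlier results of these data known. Per the labels and the study's methods, the authors trimmed reads (cutadapt 1.18, after bcl2fastq 2.17), aligned them to mm10 with Bowtie2 2.3.4.3, removed duplicate and mitochondrial reads, and called peaks per library with MACS2 at p = 0.01, keeping about 300000 peaks outside blacklisted regions. Read totals are not given in the sources used here, so depth is unknown. DKO replicate 3 had a median local background of 2.62, against 3.24 to 3.56 in the other libraries. Its lowest listed pileup was 8, against 10 to 12, and 90.3% of its summits had q under 0.01, against 97.5% to 100%. Whether this library affected the differences through its depth was not tested. The deposited lists give fold enrichment, a ratio of pileup to local background, and −log10 p and −log10 q values, as the authors' caller wrote them. Pileups were solved from the ratio and −log10 p, and 100% were whole within 0.05.

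Windows of 501 bp were set on summits of best rank first, regardless of genotype. The highest fold enrichment per window was log2-transformed and quantile-normalized; a window with no listed summit took the lowest fold enrichment of that list, 1.49 to 1.57. Windows with q under 0.01 in at least 2 libraries were fitted with limma 3.58.1 (R 4.3.3, trended eBayes, genotype only, two-sided, Benjamini-Hochberg over all 179254 windows). Sites named in the text were the 12 strongest in all 6 libraries, those whose groups do not overlap, those nearest a Galnt9 start and the 3 of highest mean. Neighbouring and adjoining sites, leukocyte and endothelial markers and single family genes were named after their values were seen. One leukocyte marker is not reported here. Annotation was GENCODE M21 basic, and sequences came from RefSeq GRCm38 through pysam 0.24.0. Alternatives covered scaling, filter, measure, width, missing value, variance model, replicate block and each library left out.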

Additional observations from a re-analysis of the deposited data

How the results depend on the processing

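Over all windows, 61 lower and 41 higher calls became 157 and 87 with median centring, 14 and 12 without scaling (which shifts the median of all windows to −0.14), 613 and 295 with a summit required in all 6 libraries, 282 and 141 with q under 0.01 in at least 1 library, 22 and 18 with missing windows at a fold enrichment of 1, and 2088 and 2048 without a variance trend. With summit pileup, lower calls were 39. Leaving out each library in turn gave 0 to 1 lower and 0 to 6 higher calls, so the counts rest on all 6 libraries, and the cause was not tested. The replicate numbers do not pair the libraries (correlations of deviations 0.0054, −0.0115 and −0.0071), and with the replicate number as a replicate block 0 and 0 windows were called. At the locus, 0 lower calls became 1 with median centring, 2 with q under 0.01 in at least 1 library and 3 without a trend, and 0 higher calls became 1 with a summit in all 6 and 2 without a trend; leaving out a library left both at 0. Without a trend these were the WT-only sites, the site past Ddx51, and both DKO-only sites. All but the Ddx51 one had imputed values in a whole genotype. The lower calls with median centring and with q under 0.01 in at least 1 library were WT-only sites as well. Every DKO value there was imputed, so these calls give no support for a difference. The DKO minus WT difference of −10.3 listed summits was −3.33 in the gene body, −5.0 among the 100000 peaks of smallest p and −6.0 with 50 kb on both sides. Of the named sites, 4 that overlapped changed sign. At the Fbrsl1 start the value became −0.13 without scaling, −0.044 with −log10 p and −0.033 with pileup, and ranged from −0.032 to 0.060 with a library left out. At 3.06 kb before Galnt9 these values were −0.13, −0.48 and −0.61, with −0.017 in windows of 150 bp on both sides and a range of −0.055 to 0.20. At 91.81 kb the value was −0.13 without scaling, with a range of −0.16 to 0.41, and at 67.24 kb the range was −0.34 to 0.059. The capped lists set no lower bound for unlisted sites.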
